A study of Homo sapiens with 12 samples.

Results

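The comparison described here is that of the human liver cancer line Huh7 grown in Matrigel by the Mix-Embed method with the same line grown flat on plastic (2D). It was read across all genes in 4 of the series' 12 poly-A RNA libraries, 2 biological replicates of each culture. Of the 58735 genes in the count table, 19342 carried enough reads to be tested. That filter used all 12 libraries, so some tested genes had few or no counts in these 4 and could not be called here. Huh7 is an established, hepatocyte-like hepatocellular carcinoma line, labelled wild-type here, and every culture was in DMEM with 10% fetal bovine serum and antibiotics. For Mix-Embed, Huh7 cells at 20000 per well were stirred into an equal volume of undiluted Matrigel, laid as 50 μl on a set 50 μl base of Matrigel at 4 to 6 mg/ml, covered with 100 μl of medium that was renewed every other day, and harvested after 6 to 8 days. The 2D cells were harvested after 2 days at about 90% confluence. Time in culture, cell number, gel and feeding therefore change together with the culture and cannot be told apart here. Other groups enter only for contrast. They are Huh7 Inject-Embed, in which 4000 cells were injected into 100 μl of 50% Matrigel and kept for 6 to 8 days, and the same Mix-Embed and 2D cultures of HLF, a mesenchymal-like liver cancer line seeded at 10000 cells per well in Mix-Embed.

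Matrigel is an extract of basement membrane from a mouse tumour, rich in laminin, collagen IV and nidogen, and cells embedded in it meet matrix on all sides and grow as rounded colonies. Hepatocytes are polarised epithelial cells that secrete most plasma proteins, assemble lipoproteins and bile, and detoxify drugs and metals, and they lose part of this programme when they are spread on plastic. Metallothioneins, small cysteine-rich proteins that bind zinc and copper, are among their most inducible genes: the zinc sensor MTF1 binds metal response elements in metallothionein promoters and in that of the zinc exporter gene SLC30A1. Low oxygen acts on another short element, the hypoxia response element, through the HIF factors.

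Promoters of some genes that rose and that hold these short elements are shown here so that the elements can be read in them directly. The RefSeq promoter table (GRCh38.p14) held 3 of the 8 metallothionein genes that were called higher in Mix-Embed, MT2A, MT1X and MT1H. Each run is the 250 bases before the annotated start, read 5′ to 3′ on the gene's strand, with matches to the metal core (TGCACNC or TGCGCNC, either strand) in capitals for the first 4 genes and matches to the hypoxia core (ACGTG or GCGTG, either strand) in capitals for the last 3.
MT2A, chr16:56608334-56608583, plus strand: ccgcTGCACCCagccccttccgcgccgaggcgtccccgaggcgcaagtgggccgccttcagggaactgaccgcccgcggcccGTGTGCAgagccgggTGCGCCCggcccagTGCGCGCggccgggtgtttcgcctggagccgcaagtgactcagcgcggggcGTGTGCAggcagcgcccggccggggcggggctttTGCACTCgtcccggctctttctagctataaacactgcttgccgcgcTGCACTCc
MT1X, chr16:56682220-56682469, plus strand: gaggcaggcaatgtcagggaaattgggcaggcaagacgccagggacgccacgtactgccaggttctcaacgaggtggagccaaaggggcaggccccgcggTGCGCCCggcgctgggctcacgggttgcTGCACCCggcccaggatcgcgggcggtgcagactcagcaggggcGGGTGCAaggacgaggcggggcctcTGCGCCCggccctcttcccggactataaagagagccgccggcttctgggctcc
MT1H, chr16:56669564-56669813, plus strand: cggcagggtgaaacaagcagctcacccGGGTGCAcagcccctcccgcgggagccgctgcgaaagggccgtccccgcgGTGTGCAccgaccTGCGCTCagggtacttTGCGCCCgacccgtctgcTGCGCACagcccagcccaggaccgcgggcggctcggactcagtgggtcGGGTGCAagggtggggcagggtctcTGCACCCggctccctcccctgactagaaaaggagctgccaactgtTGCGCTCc
SLC30A1, chr1:211579162-211579411, minus strand: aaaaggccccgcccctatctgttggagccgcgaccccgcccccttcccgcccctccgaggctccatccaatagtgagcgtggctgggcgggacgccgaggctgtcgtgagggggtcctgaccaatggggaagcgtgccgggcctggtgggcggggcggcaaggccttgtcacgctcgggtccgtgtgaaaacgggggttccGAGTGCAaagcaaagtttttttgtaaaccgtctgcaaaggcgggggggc
BNIP3, chr10:131981924-131982173, minus strand: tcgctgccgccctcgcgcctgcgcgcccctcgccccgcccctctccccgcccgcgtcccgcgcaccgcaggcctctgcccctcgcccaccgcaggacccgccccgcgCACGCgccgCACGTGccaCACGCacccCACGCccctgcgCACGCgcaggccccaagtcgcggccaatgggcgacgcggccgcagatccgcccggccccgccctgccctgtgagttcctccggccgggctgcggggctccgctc
DDIT4, chr10:72273674-72273923, plus strand: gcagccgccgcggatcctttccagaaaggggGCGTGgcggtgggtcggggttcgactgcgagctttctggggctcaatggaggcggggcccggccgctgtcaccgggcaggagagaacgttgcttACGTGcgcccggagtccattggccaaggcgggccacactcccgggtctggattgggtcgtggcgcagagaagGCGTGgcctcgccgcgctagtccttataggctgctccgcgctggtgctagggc
PFKFB3, chr10:6144671-6144920, plus strand: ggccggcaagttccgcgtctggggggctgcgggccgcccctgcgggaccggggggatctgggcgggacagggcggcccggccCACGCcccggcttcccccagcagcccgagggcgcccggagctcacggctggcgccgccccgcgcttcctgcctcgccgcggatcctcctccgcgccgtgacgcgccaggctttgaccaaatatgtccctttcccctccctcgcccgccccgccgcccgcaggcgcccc
The metal core occurred 7 times before MT2A, 4 times before MT1X, 8 times before MT1H and once before SLC30A1. Of the 2 zinc transport genes that rose and were in the table, SLC30A1 held this core and SLC39A5 held none. Of all 27305 promoters in the table, 24.7% held at least 1 metal core in the same window and 0.366% held 4 or more. The hypoxia core occurred 6 times before BNIP3, with an overlapping match on each strand counted separately, 3 times before DDIT4 and once before PFKFB3, and 43.1% of all promoters held at least 1. These are matches of letters and not measured binding sites.

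Of the 19342 genes tested, 4203 (21.7%) were called at a Benjamini-Hochberg adjusted p under 0.05 by edgeR's quasi-likelihood test, which gives every adjusted p below. In Mix-Embed, 2157 were higher (11.2%) and 2046 lower (10.6%), and the median log2 fold change over all tested genes was 0.0005. Most changes were small: the median size among called genes was 0.40 on the log2 scale, 397 genes were called and at least 2-fold higher (2.05%) and 182 at least 2-fold lower (0.941%). Levels are in CPM, counts scaled to the TMM-adjusted library total, and are given for both replicates of a group. Fold changes are on the log2 scale, Mix-Embed over 2D, ± the standard error derived from the test, with n = 2 libraries in each group. The spread behind that error was estimated over all 12 libraries and not from the compared groups alone. Replicates differed more in Huh7 2D than in Huh7 Mix-Embed (chi-square of replicate counts per gene 3.83 against 2.22). The share called followed expression, at 2.82% of genes under 1 CPM and 77% of genes at 1000 CPM or more, so that a gene of low level that was not called may have changed by an amount that could not be seen at this depth. Libraries held 15565857 and 13852135 counts in Mix-Embed, against 16041906 and 15974920 in 2D. The replicate libraries of the 2 groups did not overlap for 55.4% of genes. All values are averages over the cells of a well, so a change in every cell and a change in the share of cells that express a gene cannot be told apart.

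Calls were uneven over base composition and length. Among protein-coding genes in the quintile with the highest GC content of the longest transcript, 23.8% were called higher and 5.47% lower in Mix-Embed, whereas in the quintile with the lowest GC content 5.68% were higher and 20.7% lower. In the fifth with the longest genes 9.07% were higher and 26.4% lower, and in the shortest quintile 16% were higher and 5.33% lower. The count-weighted GC content was 48.5% and 48.6% in the Mix-Embed libraries, against 47.8% and 48.2% in the 2D libraries. With each library's GC trend taken out as an offset, an alternative added after seeing the data, 12.2% were higher and 13.7% lower in the lowest quintile and 15.1% and 12.9% in the highest, and 84.2% of the calls were kept with none reversed. With the length trend taken out as well, 77.3% of the calls were kept, again with none reversed. Mitochondrial ribosomal RNA took 0.54% and 0.50% of counts in Mix-Embed, against 0.31% in each 2D library, and its part in the results was not tested.

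**Figure D1:**
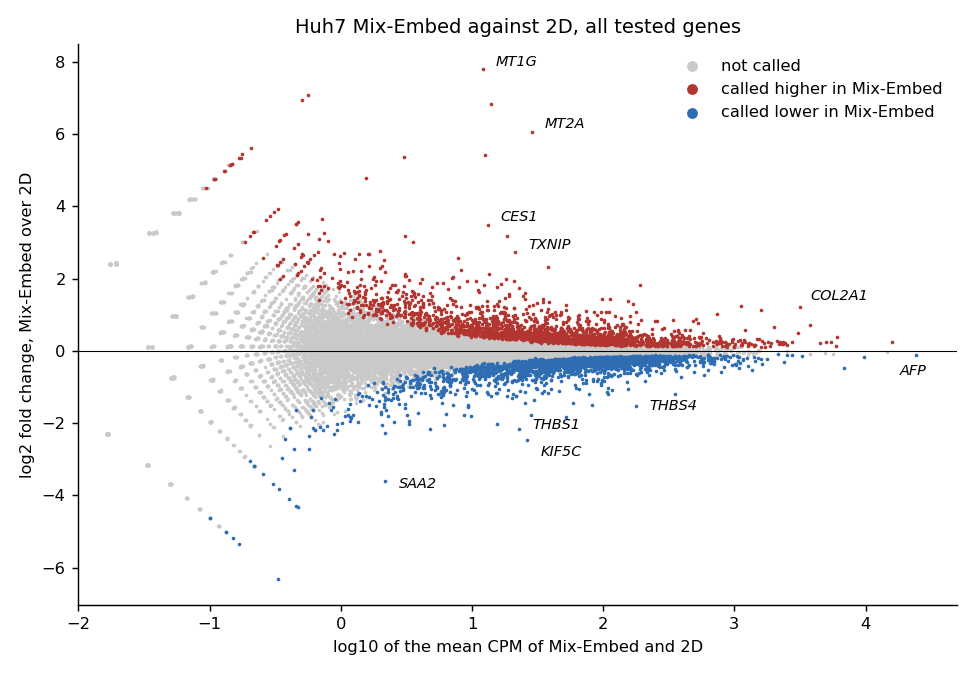
Each point is 1 of the tested genes in Huh7, with log10 of its mean CPM over the 2 cultures on the x axis and its log2 fold change, Mix-Embed over 2D, on the y axis. Red points were called higher in Mix-Embed and blue points lower, and the metallothioneins stand apart at the top, with MT1G at 7.78 and MT2A at 6.05.

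The labelled cell type held in both cultures. AFP, the fetal plasma protein of liver tumours, had 23398 and 23086 CPM in Mix-Embed, against 25782 and 24305 CPM in 2D (log2 fold change -0.11 ± 0.04, adjusted p = 0.0396). GPC3, a surface proteoglycan of liver tumours, had 965 and 991 CPM in Mix-Embed, against 1235 and 1212 CPM in 2D (log2 fold change -0.32 ± 0.04, adjusted p = 1.62e-07). HNF4A, the master factor of hepatocyte genes, had 559.5 and 541 CPM in Mix-Embed, against 359 and 373 CPM in 2D (log2 fold change 0.59 ± 0.05, adjusted p = 7.58e-13). SERPINA1 averaged 5490.1 CPM in Mix-Embed and 5794 CPM in 2D and was not called. The defining endothelial and leukocyte messages CDH5, VWF, PTPRC and CD3E were too low to be tested. The 9 endothelial markers, of which 2 were tested, summed to 10.9 CPM in each Mix-Embed library, against 11.5 and 13.7 CPM in 2D. LYZ, in the leukocyte list and also made by Huh7, fell (279.9 and 274 CPM in Mix-Embed, against 335 and 318 CPM in 2D, -0.24 ± 0.05, adjusted p = 0.000691), and of 8 fibroblast markers PDGFRA alone was called, lower (-0.34 ± 0.06).

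The largest rises were in metallothioneins. All 8 family members that could be tested rose, and MT1B, MT3 and MT4 had too few counts to test. The filter took in all 12 libraries. MT1G and MT1X, with 3 counts each in 2D, MT1H, with none, and MT1M, at no more than 0.202 CPM, did not pass on 2D counts. The other members were low in 2D as well, MT2A at 0.666 and 1.01 CPM. For members this low in 2D a rise was in part fixed by the filter. Neither the count of 8 nor the lack of overlap between libraries is therefore independent of it. The family's summed level was 142 and 149.9 CPM in Mix-Embed, against 2 and 3.23 CPM in 2D. MT2A, the main form in most tissues, had 52.4 and 60.1 CPM in Mix-Embed, against 0.666 and 1.01 CPM in 2D (log2 fold change 6.05 ± 0.15, adjusted p = 1.43e-30). MT1H averaged 1.02 CPM in Mix-Embed and had no counts in 2D. MT1G (ENSG00000125144, chr16:56666731-56668065) had 24.8 and 23.2 CPM in Mix-Embed, against 0.2 and 0 CPM in 2D, that is 654 counts in Mix-Embed against 3 in 2D, a ratio of 239 with a 95% counting interval of 81.5 to 1163. MT1M, with 5.78 and 5.99 CPM in Mix-Embed, against 0.0666 and 0.202 CPM in 2D, and MT1A, with 4.53 and 2.72 CPM in Mix-Embed, against 0.6 and 0.673 CPM in 2D, showed the same separation at lower levels, with log2 fold changes of 5.37 ± 0.43 and 2.50 ± 0.40. MT1X had 81 counts in Mix-Embed against 3 in 2D, a ratio of 29.6 (9.79 to 147). No Mix-Embed library overlapped a 2D library for any of these genes. The family's members are close copies that lie side by side on chromosome 16, so reads may have been shared among them, and the values of single members are less certain than their sum.

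Genes of zinc handling moved in both directions: of 20 tested, 3 rose and 5 fell, with a median of -0.06. SLC39A5, a zinc importer of the basolateral membrane of liver and gut cells, had 301 and 299 CPM in Mix-Embed, against 80.6 and 87.8 CPM in 2D. Both Mix-Embed libraries lay well above both 2D libraries (log2 fold change 1.83 ± 0.06, adjusted p = 2.08e-25). SLC39A4, the importer of the gut lining that is mutated in acrodermatitis enteropathica, rose too, with 12.7 and 11.8 CPM in Mix-Embed, against 3.33 and 3.84 CPM in 2D (log2 fold change 1.77 ± 0.24, adjusted p = 1.32e-07), and the exporter gene SLC30A1 had 56.5 and 53.5 CPM in Mix-Embed, against 23 and 20.4 CPM in 2D (log2 fold change 1.34 ± 0.09, adjusted p = 2.83e-16). Of the 5 that fell, the importers SLC39A6, SLC39A10 and SLC39A14 and the Golgi transporter SLC30A7 fell by 0.24 to 0.89 on the log2 scale. SLC39A10, which dropped the most of these, had 55 and 48.6 CPM in Mix-Embed, against 98.6 and 93.2 CPM in 2D.

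Of 17 iron genes, 5 rose and 4 fell. The ferritin chains FTH1 and FTL, which store iron, rose (0.36 ± 0.05 and 0.22 ± 0.04), as did NCOA4, the receptor that delivers ferritin to lysosomes (516 and 501 CPM in Mix-Embed, against 337 and 339 CPM in 2D, 0.59 ± 0.05), and HMOX1, which frees iron from haem (34.8 and 37.5 CPM in Mix-Embed, against 18.9 and 20.6 CPM in 2D, 0.87 ± 0.11). TFRC, the transferrin receptor that brings iron in, fell (652 and 616 CPM in Mix-Embed, against 967 and 931 CPM in 2D, log2 fold change -0.58 ± 0.04, adjusted p = 6.72e-14), as did the iron exporter ferroportin, SLC40A1 (-0.69 ± 0.10) and IREB2, an RNA-binding sensor of low iron (-0.24 ± 0.05). HAMP, the iron hormone hepcidin, was called higher at low counts (4.88 and 4.44 CPM in Mix-Embed, against 2.53 and 1.95 CPM in 2D, adjusted p = 0.035).

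**Figure D2:**
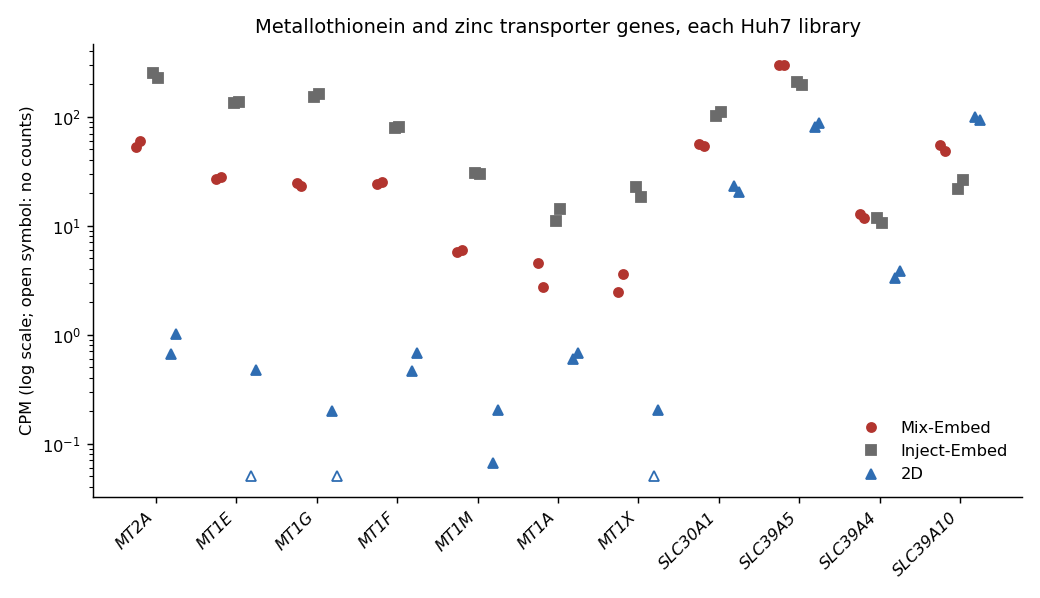
Points give CPM on a log axis in each Huh7 library for 7 metallothionein and 4 zinc transporter genes, for Mix-Embed (red circles), Inject-Embed (grey squares) and 2D (blue triangles), 2 libraries each, and an open triangle at the foot marks a library with no counts. MT2A stands at 52.4 and 60.1 CPM in Mix-Embed, below Inject-Embed and above 2D, and SLC39A5 is highest in Mix-Embed.

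Outside metallothioneins, the largest rises among called protein-coding genes with at least 10 CPM in the higher culture and no overlap of replicates included enzymes of drug and fat metabolism, secreted proteins and a nuclear receptor. CES1, the main liver carboxylesterase, which splits ester drugs and lipid esters (ENSG00000198848, chr16:55802851-55833337), had 23.4 and 24.9 CPM in Mix-Embed, against 1.87 and 2.42 CPM in 2D. The cultures were far apart and the replicates of each were close (log2 fold change 3.49 ± 0.21, adjusted p = 4.34e-17). ZG16, a lectin-like protein of secretory granules, had 32.7 and 34.1 CPM in Mix-Embed, against 2.67 and 4.71 CPM in 2D (log2 fold change 3.18 ± 0.19, adjusted p = 1.07e-16). TXNIP, an arrestin family protein that restrains glucose uptake and binds thioredoxin, had 36.6 and 37.1 CPM in Mix-Embed, against 6.66 and 4.44 CPM in 2D (log2 fold change 2.73 ± 0.13, adjusted p = 5.16e-21). SULT1E1, the oestrogen sulfotransferase, had 13.9 and 13.1 CPM in Mix-Embed, against 2.4 and 2.09 CPM in 2D. NPNT, the matrix protein nephronectin, had 60.7 and 65.7 CPM in Mix-Embed, against 14.3 and 11.1 CPM in 2D, with a log2 fold change of 2.31 ± 0.12. Replicates of the cultures did not overlap for either gene, which the selection required. KCNC1, a potassium channel gene, had 12.7 and 14.5 CPM in Mix-Embed, against 2.87 and 2.89 CPM in 2D. LCT, the gut lactase gene, had 23.4 and 20.8 CPM in Mix-Embed, against 5.2 and 4.91 CPM in 2D. NR1I2, which encodes PXR, the nuclear receptor that senses drugs, had 11.6 and 11 CPM in Mix-Embed, against 2.27 and 3.3 CPM in 2D (log2 fold change 2.02 ± 0.25, adjusted p = 2.28e-08). PNCK, a calmodulin-dependent kinase gene, had 28.7 and 29 CPM in Mix-Embed, against 8.26 and 6.33 CPM in 2D.

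Among called protein-coding genes with at least 10 CPM in the higher culture and no overlap of replicates, those that fell most included genes of the cytoskeleton, of cell adhesion and of the matrix. KIF5C, a kinesin heavy chain that carries cargo along microtubules (ENSG00000168280, chr2:148875250-149026759), had 7.1 and 9.18 CPM in Mix-Embed, against 45.1 and 44.4 CPM in 2D. Both Mix-Embed libraries lay far below both 2D libraries (log2 fold change -2.46 ± 0.14, adjusted p = 9.12e-18). THBS1, thrombospondin 1, a matrix glycoprotein that activates TGF-beta, had 9.47 and 7.08 CPM in Mix-Embed, against 38.5 and 36.7 CPM in 2D (log2 fold change -2.17 ± 0.11, adjusted p = 2.13e-20), and its relative THBS4 had 90.2 and 93.1 CPM in Mix-Embed, against 254 and 274 CPM in 2D (log2 fold change -1.53 ± 0.07, adjusted p = 2.24e-22). ABLIM3, an actin-binding LIM protein, had 7.52 and 4.51 CPM in Mix-Embed, against 24.9 and 25 CPM in 2D (log2 fold change -2.04 ± 0.18, adjusted p = 7.05e-12). The gene of carboxypeptidase M, a membrane enzyme that trims peptides, fell as well (log2 fold change -1.84 ± 0.10, adjusted p = 3.71e-18). NID2, nidogen 2, a linker of basement membranes, fell (-1.77 ± 0.26), as did HEPACAM2, a cell adhesion gene (-1.82 ± 0.23), SCN9A, a sodium channel gene with 14.2 and 12.9 CPM in Mix-Embed, against 37 and 37 CPM in 2D (-1.44 ± 0.10), and the dynein light chain gene DYNLT5 and the myosin gene MYO18B, each to under 6 CPM in Mix-Embed. GPRIN3, a neurite outgrowth gene, had 14 and 11.4 CPM in Mix-Embed, against 44.3 and 42.7 CPM in 2D.

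**Figure D3:**
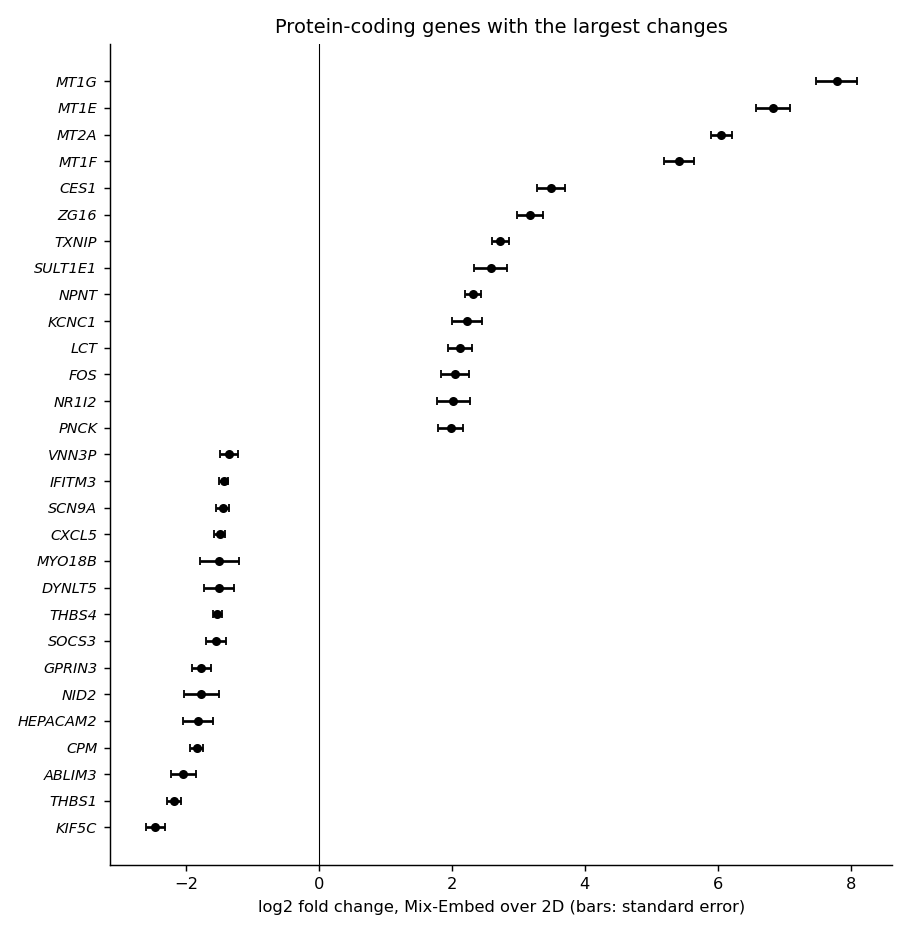
Points are the log2 fold changes, Mix-Embed over 2D, of 14 of the 15 protein-coding genes highest and of the 15 lowest among called genes of at least 10 CPM in the higher culture whose replicates did not overlap, and bars are the standard error from the test. The genes that rose reach 7.78 (MT1G) and those that fell reach -2.46 (KIF5C).

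Secreted and metabolic hepatocyte genes were counted in groups, to be read against the 11.2% higher and 10.6% lower of all genes. Of 18 carrier proteins of plasma 8 rose and 4 fell, of 18 apolipoprotein and lipoprotein assembly genes 8 rose and 3 fell, and of 23 coagulation genes 8 rose and 6 fell. In each of these the share that rose and the share that fell both stood above those of all genes. The share called rose with level, from 29.9% of genes at 10 to 100 CPM to 77% at 1000 CPM or more. Shares over all genes are therefore a low mark for lists of abundant genes, and level was not matched. AHSG and ALB were among the carriers that rose. TF, transferrin, had 6928 and 6879 CPM in Mix-Embed, against 5233 and 5379 CPM in 2D (log2 fold change 0.38 ± 0.04, adjusted p = 2.01e-11). APOH, beta-2-glycoprotein I, rose too (0.63 ± 0.08), whereas HPX, the haem carrier, fell (-0.44 ± 0.07). APOA1, the main protein of high-density lipoprotein, had 2432 and 2504 CPM in Mix-Embed, against 1529.8 and 1579 CPM in 2D (log2 fold change 0.67 ± 0.04, adjusted p = 8.12e-16). APOC3 and APOM, small apolipoproteins, rose to 127 and 131 CPM and 110.2 and 111 CPM in Mix-Embed, against 61 and 62.7 CPM and 63.9 and 69.1 CPM in 2D. APOB and LIPC, hepatic lipase, fell, with log2 fold changes of -0.48 ± 0.04 and -0.38 ± 0.07.

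Within coagulation, called genes lay in both directions. SERPINC1, antithrombin, had 44.8 and 44.4 CPM in Mix-Embed, against 15.8 and 19.9 CPM in 2D (log2 fold change 1.32 ± 0.13, adjusted p = 6.75e-11). F2, prothrombin, had 402 and 414 CPM in Mix-Embed, against 264 and 295 CPM in 2D (log2 fold change 0.55 ± 0.05, adjusted p = 1.19e-10). SERPIND1, heparin cofactor II, and SERPINF2, the plasmin inhibitor, rose less (0.40 ± 0.05 and 0.24 ± 0.05). The fibrinogen genes FGA, FGB and FGG, which lie together on chromosome 4, each fell, by 0.37 to 0.52 on the log2 scale. FGA, the largest of the 3 changes, had 1110.4 and 1118 CPM in Mix-Embed, against 1600.1 and 1598 CPM in 2D. TFPI, the inhibitor of the tissue factor pathway, also fell (-0.54 ± 0.06).

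Of 24 complement genes 1 rose and 4 fell, and the gene that rose was C4BPB, a chain of an inhibitor of complement (0.64 ± 0.15). C5, the precursor of the terminal complex, had 148 and 151 CPM in Mix-Embed, against 280.0 and 252 CPM in 2D (log2 fold change -0.83 ± 0.06, adjusted p = 1.82e-14). MASP1, a protease of the lectin pathway, and SERPING1, the C1 inhibitor, fell by 0.41 and 0.61. The acute phase response, the set of plasma proteins that interleukin-6 drives in liver, fell more broadly: 9 of 14 genes fell and 3 rose, with a median of -0.53. The 3 that rose were CP, ceruloplasmin, HAMP and the interleukin-6 receptor gene IL6R (51.6 and 43 CPM in Mix-Embed, against 28.9 and 26.9 CPM in 2D, 0.76 ± 0.09), and 1 was called higher without 2D replicate 2 or without either Mix-Embed replicate. HP, haptoglobin, had 168 and 179 CPM in Mix-Embed, against 249 and 267 CPM in 2D (log2 fold change -0.57 ± 0.06, adjusted p = 5.28e-10). LBP, which binds bacterial lipopolysaccharide, had 1.74 and 1.71 CPM in Mix-Embed, against 7.6 and 7.94 CPM in 2D (log2 fold change -2.16 ± 0.36, adjusted p = 8.71e-06). SAA2, a serum amyloid A gene with a near-identical neighbour, fell to 0.488 and 0.156 CPM in Mix-Embed, against 3.93 and 4.17 CPM in 2D. SOCS3, the feedback inhibitor of interleukin-6 signalling, had 4.94 and 4.59 CPM in Mix-Embed, against 12.3 and 15.8 CPM in 2D (log2 fold change -1.55 ± 0.15, adjusted p = 6.75e-11).

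Liver transcription factors rose in 9 and fell in 2 of 24 genes, with a median of only 0.07. With the GC and length offset 9 were higher and 4 lower. CEBPA, a factor of mature hepatocytes, had 287 and 281 CPM in Mix-Embed, against 177 and 199.7 CPM in 2D (log2 fold change 0.59 ± 0.06, adjusted p = 1.83e-10). TBX3, a factor of pericentral hepatocytes and hepatoblasts, had 65 and 67.6 CPM in Mix-Embed, against 40.4 and 42.7 CPM in 2D (log2 fold change 0.67 ± 0.09, adjusted p = 3.39e-07). PROX1 and NR5A2, factors of liver development and bile acid synthesis, were the 2 that fell (-0.49 ± 0.06 and -0.32 ± 0.08).

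Genes of bile acid synthesis, drug handling and fat burning rose more often than they fell. In the bile acid list 6 of the 12 tested members rose and none fell, with a median of 0.45; a further 8 members, CYP7A1 and ABCB11 among them, were too low to test. AKR1D1, a bile acid reductase, had 17 and 15.3 CPM in Mix-Embed, against 8.13 and 7.27 CPM in 2D (log2 fold change 1.07 ± 0.19, adjusted p = 2.01e-05). SLC51A, a chain of the basolateral bile acid exporter, had 14.5 and 15.2 CPM in Mix-Embed, against 7.13 and 8.75 CPM in 2D (log2 fold change 0.90 ± 0.18, adjusted p = 0.000234). Of 22 cytochrome P450 genes 7 rose and none fell (median 0.40). CYP3A4, the main drug-metabolising P450 of adult liver, was too low to test. Its few counts lay the other way, 0 and 1 in Mix-Embed, against 10 and 7 in 2D. CYP1A1, a target of the aryl hydrocarbon receptor, had 17.4 and 21.2 CPM in Mix-Embed, against 10.7 and 12 CPM in 2D (log2 fold change 0.76 ± 0.14, adjusted p = 7.38e-05). CYP26A1, the enzyme that destroys retinoic acid, had 5.08 and 6.07 CPM in Mix-Embed, against 0.4 and 0.808 CPM in 2D (log2 fold change 3.19 ± 0.43, adjusted p = 1.76e-07). Of 28 conjugation genes 11 rose and 2 fell. MGST3, a membrane glutathione transferase, had 44.8 and 47 CPM in Mix-Embed, against 27.2 and 26.3 CPM in 2D (log2 fold change 0.78 ± 0.09, adjusted p = 3.75e-09), GSTA1, which has a close paralog in GSTA2, rose as well (1.16 ± 0.18), and GSTM3 fell (13.7 and 14.9 CPM in Mix-Embed, against 26.3 and 26.1 CPM in 2D, -0.88 ± 0.11). Of 22 genes of fatty acid oxidation and ketone synthesis 10 rose and none fell, though with the GC offset 2 were called lower. ECI1 and ACAA1, a mitochondrial isomerase and a peroxisomal thiolase, both rose (0.45 ± 0.07 and 0.44 ± 0.08).

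Genes of lipid synthesis changed in both directions. Of 22 genes of fatty acid synthesis and storage 6 rose and 9 fell. ACACA, the rate-limiting carboxylase, ELOVL6, an elongase, and FADS1, a desaturase, fell (-0.45 ± 0.05, -0.38 ± 0.06 and -0.33 ± 0.04), while the last enzymes of triglyceride synthesis, DGAT1 and DGAT2, and AGPAT2, an earlier step, rose (0.46 ± 0.05, 0.87 ± 0.11 and 0.57 ± 0.07). DGAT2 had 51.1 and 46.2 CPM in Mix-Embed, against 24.3 and 28.8 CPM in 2D. FASN, fatty acid synthase itself, had 2658 and 2656 CPM in Mix-Embed, against 2312 and 2466 CPM in 2D (log2 fold change 0.15 ± 0.04, adjusted p = 0.00267), and its log2 fold change was -0.02 and not called with the GC offset. Cholesterol synthesis was near balance, with 3 higher and 6 lower of 23: HMGCS1, which makes HMG-CoA, fell (839 and 815 CPM in Mix-Embed, against 1122 and 1049.9 CPM in 2D, log2 fold change -0.39 ± 0.05, adjusted p = 5.79e-09), as did FDFT1, squalene synthase (-0.27 ± 0.04), and MVD rose (0.39 ± 0.06). Without Mix-Embed replicate 2, 1 was higher, and with the GC and length offset 10 were lower.

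In the urea cycle and amino acid breakdown 5 of 21 rose and 3 fell. CPS1, which admits ammonia to the urea cycle, had 55.2 and 49.1 CPM in Mix-Embed, against 26.4 and 26 CPM in 2D (log2 fold change 1.00 ± 0.10, adjusted p = 3.89e-10). ARG1, arginase, which closes the cycle, had 59.4 and 68.1 CPM in Mix-Embed, against 30.3 and 32.3 CPM in 2D (log2 fold change 1.03 ± 0.12, adjusted p = 3.66e-09). HAL, which breaks down histidine, went the other way, with 23.7 and 23.4 CPM in Mix-Embed, against 50.8 and 54.7 CPM in 2D (log2 fold change -1.16 ± 0.14, adjusted p = 6.07e-09). Gluconeogenesis and glycogen genes rose in 9 and fell in 2 of 16 tested. PCK2, the mitochondrial PEP carboxykinase, had 169 and 183 CPM in Mix-Embed, against 104 and 112 CPM in 2D (log2 fold change 0.71 ± 0.06, adjusted p = 7.45e-12), and its cytosolic relative PCK1 was called higher at under 4 CPM (2.67 ± 0.56). GYS1, glycogen synthase, rose (0.64 ± 0.06), whereas PYGB, a glycogen phosphorylase, fell (-0.33 ± 0.06). Without Mix-Embed replicate 2, 4 of these 16 were called higher, and without Mix-Embed replicate 1, 5.

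**Figure D4:**
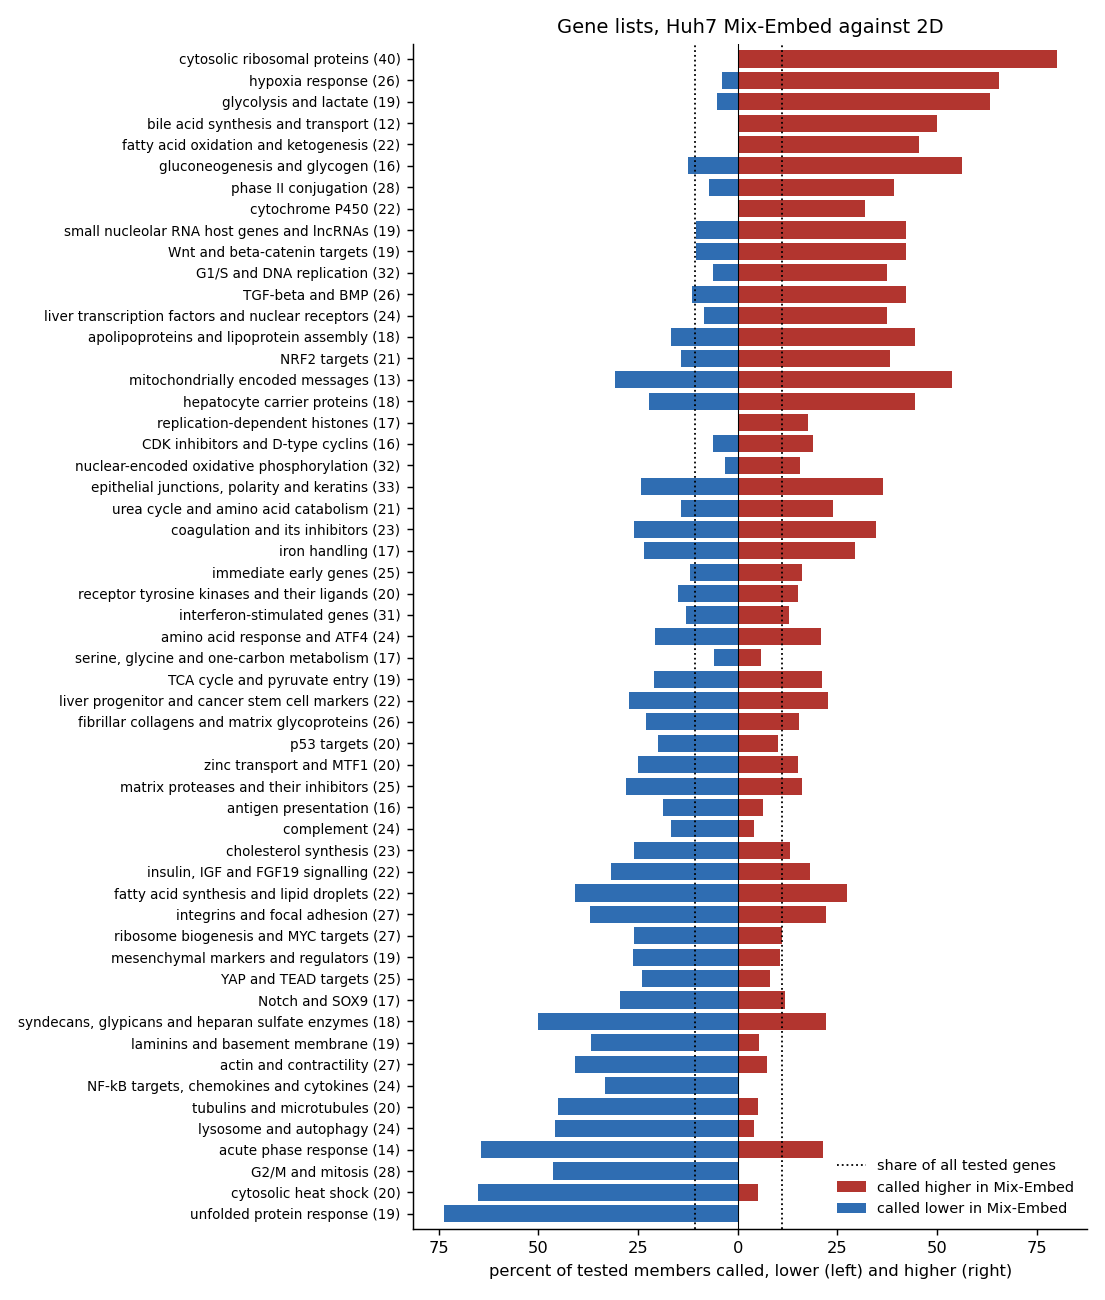
Bars give, for each gene list with at least 10 tested members (number in brackets), the percent called higher (red, right) and lower (blue, left) in Huh7 Mix-Embed against 2D, and dotted lines mark the shares over all tested genes, 11.2% and 10.6%. Ribosomal proteins, hypoxia and glycolysis stand at the top, and the unfolded protein response, heat shock and mitosis at the bottom.

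Hypoxia-response genes rose in 17 and fell in 1 of 26, with a median of 0.40. Their summed level was 4161 and 4205 CPM in Mix-Embed, against 3059 and 2995 CPM in 2D. PFKFB4, which makes the activator of phosphofructokinase, had 179.9 and 177 CPM in Mix-Embed, against 93.5 and 95.1 CPM in 2D (log2 fold change 0.92 ± 0.07, adjusted p = 9.51e-15). DDIT4, the inhibitor of mTORC1 shown above with 3 hypoxia cores, had 85.5 and 84.4 CPM in Mix-Embed, against 44 and 42.9 CPM in 2D (log2 fold change 0.97 ± 0.08, adjusted p = 6.87e-13). BNIP3, with 6 cores, a protein of mitochondrial autophagy, had 426 and 445 CPM in Mix-Embed, against 242 and 242 CPM in 2D. VEGFA, the vascular growth factor, rose by less, with 92.3 and 103 CPM in Mix-Embed, against 75.8 and 79.7 CPM in 2D (log2 fold change 0.33 ± 0.07, adjusted p = 0.000511). CA9, the carbonic anhydrase that marks strong hypoxia in tumours, had 0.766 and 0.156 CPM in Mix-Embed, against 0.0666 and 0.606 CPM in 2D, under 1 CPM throughout, and ERO1A, an oxidase of the endoplasmic reticulum, was the 1 that fell (-0.19 ± 0.06), a call lost with either GC offset. In the promoter table, 9 of the 11 hypoxia genes that rose and were listed there held a hypoxia core, as did 4 of 8 that were not called and ERO1A, the 1 that fell, with 2 cores.

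Glycolysis followed, with 12 of 19 genes higher and 1 lower. PFKL, the liver form of phosphofructokinase, rose (335 and 343 CPM in Mix-Embed, against 211 and 233 CPM in 2D, 0.61 ± 0.05) and PFKM, the muscle form, was the 1 that fell (106 and 104 CPM in Mix-Embed, against 151 and 153 CPM in 2D, -0.53 ± 0.06). PKM, pyruvate kinase, had 1653 and 1659 CPM in Mix-Embed, against 1309.7 and 1351 CPM in 2D (log2 fold change 0.32 ± 0.04, adjusted p = 3.58e-09). By contrast the respiratory chain moved little: of 32 nuclear-encoded subunits 5 rose and 1 fell, and 2 rose without 2D replicate 1 or without Mix-Embed replicate 2, and 9 without 2D replicate 2 or with the GC offset. Of the 13 mitochondrially encoded messages 7 rose and 4 fell. MT-CO1, a catalytic subunit of cytochrome oxidase, had 17362 and 17050.2 CPM in Mix-Embed, against 14811 and 14019 CPM in 2D (log2 fold change 0.26 ± 0.03, adjusted p = 4.46e-09). MT-ND2, of complex I, had 2166 and 2117 CPM in Mix-Embed, against 2623 and 2634 CPM in 2D (log2 fold change -0.30 ± 0.04, adjusted p = 2.03e-08). In the list of TXNIP and other arrestin domain genes, 4 of 8 rose and none fell, and 3 rose with RLE scaling or library totals alone. MLXIPL, the glucose-sensing factor ChREBP that activates TXNIP, had 58.4 and 57 CPM in Mix-Embed, against 35.5 and 39.2 CPM in 2D (log2 fold change 0.63 ± 0.11, adjusted p = 1.26e-05).

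Protein folding genes fell more often than they rose. In the unfolded protein response, the set of chaperones and factors of the endoplasmic reticulum, 14 of 19 genes fell and none rose (median -0.27). HYOU1, a large chaperone of that compartment, had 205 and 206 CPM in Mix-Embed, against 297 and 310.5 CPM in 2D (log2 fold change -0.57 ± 0.05, adjusted p = 2.79e-12). XBP1, a transcription factor of the response, had 581 and 577 CPM in Mix-Embed, against 729.5 and 733 CPM in 2D (log2 fold change -0.34 ± 0.04, adjusted p = 4.9e-08). EDEM1, which marks misfolded proteins for removal, fell (-0.52 ± 0.07). Of 20 cytosolic heat shock genes 13 fell and 1 rose, HSF1, the heat shock factor itself (0.20 ± 0.07), and none was called higher with either GC offset. HSPH1, an exchange factor for HSP70, had 149 and 151 CPM in Mix-Embed, against 235 and 220.4 CPM in 2D (log2 fold change -0.60 ± 0.05, adjusted p = 4.09e-12). HSPB1, a small heat shock protein, had 43.4 and 44.7 CPM in Mix-Embed, against 62.4 and 75.1 CPM in 2D (log2 fold change -0.64 ± 0.08, adjusted p = 1.29e-08). In the lysosome and autophagy list 11 of 24 genes fell and 1 rose, with 6 falling when Mix-Embed replicate 2 was left out. GABARAPL1, an autophagosome protein, had 20.3 and 23.4 CPM in Mix-Embed, against 37.7 and 38.1 CPM in 2D (log2 fold change -0.80 ± 0.10, adjusted p = 1.83e-08). LAMP2, a lysosomal membrane protein, had 103 and 105 CPM in Mix-Embed, against 149 and 146 CPM in 2D (log2 fold change -0.50 ± 0.06, adjusted p = 8.08e-09). NPC1, the lysosomal cholesterol exporter, was the 1 that rose (0.19 ± 0.05).

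Oxidative stress genes under NRF2 rose in 8 and fell in 3 of 21. GPX2, a glutathione peroxidase of epithelia, had 43.3 and 38.8 CPM in Mix-Embed, against 16.8 and 17.4 CPM in 2D (log2 fold change 1.27 ± 0.12, adjusted p = 3.52e-11). NQO1, a quinone reductase, had 137 and 134 CPM in Mix-Embed, against 96.8 and 96.5 CPM in 2D (log2 fold change 0.49 ± 0.06, adjusted p = 4.62e-08). GCLM, a subunit of the enzyme that starts glutathione synthesis, and the cystine importer SLC7A11 fell (-0.40 ± 0.08 and -0.42 ± 0.07).

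Genes of inflammation fell in part. Of 24 NF-kB targets, chemokines and cytokines 8 fell and none rose (median -0.45), with 5 falling without 2D replicate 1 or without either Mix-Embed replicate. CXCL5, a chemokine that draws neutrophils, had 42.3 and 44.4 CPM in Mix-Embed, against 126 and 117 CPM in 2D (log2 fold change -1.49 ± 0.08, adjusted p = 2.35e-18). ICAM1, an adhesion receptor for leukocytes, had 23.8 and 18.4 CPM in Mix-Embed, against 47.3 and 47.2 CPM in 2D (log2 fold change -1.16 ± 0.13, adjusted p = 5.21e-09). IL32 and CSF1, a cytokine and the macrophage growth factor, fell as well (-1.22 ± 0.19 and -0.87 ± 0.17). Interferon-stimulated genes did not move as a group, with 4 higher and 4 lower of 31. IFITM3, which blocks virus entry, had 31.9 and 31.7 CPM in Mix-Embed, against 83.4 and 88.3 CPM in 2D (log2 fold change -1.43 ± 0.07, adjusted p = 1.09e-20). USP18, which dampens interferon signalling, rose (0.48 ± 0.13).

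Matrix genes changed gene by gene. COL2A1, the chain of cartilage collagen II (ENSG00000139219, chr12:47972965-48004554), had 4355 and 4431 CPM in Mix-Embed, against 1842 and 1931 CPM in 2D. The replicates of each culture lay close together and the cultures did not overlap (log2 fold change 1.22 ± 0.04, adjusted p = 4.22e-26). COL11A1, which forms mixed fibrils with collagen II, went the other way, with 71.8 and 72.8 CPM in Mix-Embed, against 127 and 133 CPM in 2D (log2 fold change -0.85 ± 0.06, adjusted p = 2.83e-16). The collagen I gene COL1A2 fell as well (-0.73 ± 0.08). COL27A1 and FBLN5, another fibrillar collagen and the elastic fibre protein fibulin 5, rose (0.39 ± 0.06 and 0.63 ± 0.09). In this list 4 rose and 6 fell of 26. Basement membrane genes fell in 7 and rose in 1 of 19, with none called higher under either GC offset. LAMA5, a laminin chain, had 238 and 243 CPM in Mix-Embed, against 314 and 347 CPM in 2D (log2 fold change -0.46 ± 0.06, adjusted p = 3.25e-08). NID1, nidogen 1, had 491 and 495 CPM in Mix-Embed, against 653 and 661 CPM in 2D (log2 fold change -0.41 ± 0.05, adjusted p = 1.68e-09). COL4A5, a collagen IV chain, had 19.4 and 21.1 CPM in Mix-Embed, against 42.7 and 40.3 CPM in 2D (log2 fold change -1.04 ± 0.09, adjusted p = 9.48e-12). COL4A1, the common collagen IV chain, had no more than 2 counts in any of the 4 libraries.

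Of 25 matrix proteases and inhibitors 4 rose and 7 fell. ADAM9, a membrane protease, had 175 and 171 CPM in Mix-Embed, against 280.2 and 268 CPM in 2D (log2 fold change -0.66 ± 0.05, adjusted p = 9.76e-15). MMP14, the membrane collagenase, fell (-0.49 ± 0.08) as its relative MMP15 rose (0.43 ± 0.07). SERPINE2, an inhibitor of thrombin and urokinase, had 29.2 and 25.1 CPM in Mix-Embed, against 15.4 and 15.8 CPM in 2D (log2 fold change 0.80 ± 0.11, adjusted p = 1.58e-07). Of 18 syndecans, glypicans and heparan sulfate enzymes 4 rose and 9 fell, with 3 falling without Mix-Embed replicate 1 and 5 without Mix-Embed replicate 2 or 2D replicate 1. HS6ST1, a sulfotransferase that edits the chains, rose (0.59 ± 0.08), and its relative HS6ST2 fell (-0.47 ± 0.11).

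Integrin and focal adhesion genes fell in 10 and rose in 6 of 27. The laminin and fibronectin receptor chains ITGA6, ITGB1 and ITGA5 fell (-0.44 ± 0.05, -0.39 ± 0.04 and -1.10 ± 0.16), and ITGA3, another laminin receptor chain, rose, with 22.9 and 21.2 CPM in Mix-Embed, against 9.53 and 9.29 CPM in 2D (log2 fold change 1.23 ± 0.09, adjusted p = 2.01e-14). FLNA, filamin A, which ties actin to integrins, had 77 and 72.1 CPM in Mix-Embed, against 155 and 162 CPM in 2D (log2 fold change -1.09 ± 0.05, adjusted p = 2.24e-22). TNS1, tensin 1, had 19.6 and 21.6 CPM in Mix-Embed, against 8.93 and 8.41 CPM in 2D (log2 fold change 1.25 ± 0.17, adjusted p = 2.57e-07). The actin and contractility list fell in 11 and rose in 2 of 27. TPM4, a tropomyosin, had 147 and 133 CPM in Mix-Embed, against 217 and 217 CPM in 2D (log2 fold change -0.63 ± 0.06, adjusted p = 3.82e-12), and the 2 that rose were ACTG1, cytoplasmic gamma actin, and PFN1, profilin (0.27 ± 0.03 and 0.14 ± 0.04). Of 20 tubulin and microtubule genes 9 fell and 1 rose. TUBB6, a beta tubulin, had 101 and 96.9 CPM in Mix-Embed, against 156 and 162 CPM in 2D (log2 fold change -0.69 ± 0.05, adjusted p = 1.98e-13). MAP1B, a microtubule-binding protein, had 2.72 and 3.11 CPM in Mix-Embed, against 9.53 and 10.2 CPM in 2D (log2 fold change -1.76 ± 0.19, adjusted p = 5.21e-10). Targets of YAP, the coactivator that is active in spread cells, fell in 6 and rose in 2 of 25: AMOTL2 and NT5E fell (-0.62 ± 0.08 and -0.69 ± 0.07), while CCN2, a standard target, had 29.8 and 35.5 CPM in Mix-Embed, against 36.5 and 36.5 CPM in 2D and was not called (adjusted p = 0.296).

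Epithelial junction genes rose in 12 and fell in 8 of 33. CDH17, liver-intestine cadherin, had 176 and 154 CPM in Mix-Embed, against 62 and 61.3 CPM in 2D (log2 fold change 1.42 ± 0.07, adjusted p = 8.11e-20). CLDN2, a pore-forming claudin, had 31.4 and 25.5 CPM in Mix-Embed, against 11 and 8.01 CPM in 2D (log2 fold change 1.58 ± 0.15, adjusted p = 3.94e-11). GJB1, the gap junction protein connexin 32 of hepatocytes, had 65.3 and 75.6 CPM in Mix-Embed, against 34.8 and 38.4 CPM in 2D (log2 fold change 0.94 ± 0.10, adjusted p = 4.12e-10). CLDN1, a sealing claudin, and CLDN6, an embryonic one, fell (-0.44 ± 0.06 and -0.89 ± 0.12), as did the keratin KRT18 (-0.43 ± 0.05) and the scaffold TJP1 (-0.33 ± 0.06). CDH1, E-cadherin, rose slightly (163 and 166 CPM in Mix-Embed, against 129 and 136 CPM in 2D, log2 fold change 0.32 ± 0.06, adjusted p = 0.000229). Among 19 mesenchymal genes 2 rose and 5 fell. VIM, vimentin, had 60.5 and 61.9 CPM in Mix-Embed, against 110.4 and 99.6 CPM in 2D (log2 fold change -0.78 ± 0.06, adjusted p = 7.76e-14). ZEB1 fell while SNAI1 rose at the edge of the threshold (adjusted p = 0.00454 and 0.0498). Progenitor and stem cell markers divided, 5 higher and 6 lower of 22. EPCAM had 72.7 and 79.1 CPM in Mix-Embed, against 49.5 and 51.4 CPM in 2D (log2 fold change 0.59 ± 0.09, adjusted p = 5.28e-06). ANPEP, the surface peptidase CD13, had 229 and 235 CPM in Mix-Embed, against 134 and 145 CPM in 2D (log2 fold change 0.73 ± 0.06, adjusted p = 2.25e-12). PROM1, which encodes CD133, had 61.6 and 58.8 CPM in Mix-Embed, against 87.2 and 86.2 CPM in 2D (log2 fold change -0.53 ± 0.09, adjusted p = 2.01e-05). CD44 stood at 3.41 and 3.42 CPM in Mix-Embed, against 5.07 and 5.12 CPM in 2D.

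Several signalling pathways changed in their target genes. In the TGF-beta and BMP list 11 of 26 rose and 3 fell, with a median of 0.36. The BMP targets ID1 and ID3, inhibitors of basic helix-loop-helix factors, had 205 and 216 CPM and 44.1 and 48.5 CPM in Mix-Embed, against 101 and 117 CPM and 20.6 and 21.4 CPM in 2D. All Mix-Embed values lay above all 2D values, with log2 fold changes of 0.96 ± 0.06 and 1.14 ± 0.09. BAMBI, a decoy receptor, and FST, follistatin, which traps activin, rose too (0.82 ± 0.07 and 1.08 ± 0.11). The receptor TGFBR2 and the TGF-beta target TGFBI fell (-0.68 ± 0.06 and -0.64 ± 0.08). Wnt targets rose in 8 and fell in 2 of 19: LGR5, a Wnt-amplifying receptor, had 66.9 and 66.8 CPM in Mix-Embed, against 40.1 and 36.2 CPM in 2D (log2 fold change 0.81 ± 0.10, adjusted p = 3.52e-08). SP5 had 22.2 and 24 CPM in Mix-Embed, against 8.33 and 9.49 CPM in 2D (log2 fold change 1.37 ± 0.17, adjusted p = 2.35e-08). GLUL, glutamine synthetase, fell slightly (-0.24 ± 0.04).

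In the Notch list 5 of 17 fell and 2 rose. HEY1, a repressor under Notch and BMP, had 32.5 and 33.3 CPM in Mix-Embed, against 8.53 and 8.75 CPM in 2D (log2 fold change 1.93 ± 0.15, adjusted p = 9.87e-14), while the receptor NOTCH1 and the ligand JAG1 fell (-0.57 ± 0.10 and -0.38 ± 0.05). Of 20 receptor tyrosine kinases and ligands 3 rose and 3 fell. ERBB2 had 171 and 185 CPM in Mix-Embed, against 104 and 109 CPM in 2D (log2 fold change 0.74 ± 0.06, adjusted p = 1.98e-13) and EGFR fell (-0.21 ± 0.05). Among insulin, IGF and FGF19 genes 4 of 22 rose and 7 fell, IGF2R, which clears IGF2, with 342 and 354 CPM in Mix-Embed, against 458 and 451 CPM in 2D (log2 fold change -0.38 ± 0.05, adjusted p = 3.29e-08). Immediate early genes did not move together, 4 higher and 3 lower of 25. FOS had 10.7 and 12.3 CPM in Mix-Embed, against 2.8 and 2.76 CPM in 2D (log2 fold change 2.04 ± 0.21, adjusted p = 1.7e-10). EGR1 and NR4A1 fell (-0.49 ± 0.10 and -0.89 ± 0.18). DUSP5, a phosphatase that keeps ERK in the nucleus inactive, had 65.3 and 68.1 CPM in Mix-Embed, against 151 and 152 CPM in 2D (log2 fold change -1.18 ± 0.07, adjusted p = 1.06e-17). DUSP6, its cytoplasmic counterpart, rose (0.29 ± 0.07).

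Growth genes divided between replication and mitosis. Of 32 genes of the G1/S transition and DNA replication 12 rose and 2 fell, and of 28 genes of G2/M and mitosis 13 fell and none rose (median -0.13), though with the GC offset 1 was called higher. CDT1, which licenses replication origins, had 156 and 167 CPM in Mix-Embed, against 78.6 and 87.6 CPM in 2D (log2 fold change 0.96 ± 0.07, adjusted p = 1.77e-14). CCNE1, cyclin E1, had 29.3 and 26.3 CPM in Mix-Embed, against 15.9 and 16.8 CPM in 2D (log2 fold change 0.77 ± 0.12, adjusted p = 2.59e-06). CENPE, a kinetochore motor, had 62.5 and 53 CPM in Mix-Embed, against 89.4 and 84.2 CPM in 2D (log2 fold change -0.59 ± 0.07, adjusted p = 2.03e-08). BUB1, a spindle checkpoint kinase, had 102 and 98 CPM in Mix-Embed, against 139.8 and 132 CPM in 2D (log2 fold change -0.44 ± 0.06, adjusted p = 3.45e-07). MKI67, the proliferation marker, fell slightly (565 and 534 CPM in Mix-Embed, against 637 and 620.2 CPM in 2D, -0.19 ± 0.04), and CCND1, cyclin D1, had 242 and 244 CPM in Mix-Embed, against 240.0 and 246 CPM in 2D, with a log2 fold change of 0.00 that was not called. Without Mix-Embed replicate 2, 12 replication genes rose and none fell, and 8 mitosis genes fell. The CDK inhibitor CDKN1A rose at a low level (6.89 and 6.69 CPM in Mix-Embed, against 3.47 and 3.97 CPM in 2D, 0.87 ± 0.19).

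Cytosolic ribosomal protein genes rose in 32 of 40 and fell in none, by a median of only 0.20. Calls were common at high level: of all 100 genes at 1000 CPM or more, 49 were called higher and 28 lower. The count was 30 with RLE scaling, 31 with library totals alone and 35 with the GC offset. RPL29, of the large subunit, had 692 and 671 CPM in Mix-Embed, against 498 and 566 CPM in 2D (log2 fold change 0.36 ± 0.05, adjusted p = 1.68e-07). RPS3, of the small subunit, had 1293 and 1306 CPM in Mix-Embed, against 1005 and 1127 CPM in 2D (log2 fold change 0.29 ± 0.04, adjusted p = 6.08e-07). EEF2, the elongation factor that moves the ribosome along, had 5420.1 and 5435 CPM in Mix-Embed, against 4399 and 4700.0 CPM in 2D (log2 fold change 0.25 ± 0.03, adjusted p = 2.38e-07). Many of these genes have processed pseudogenes that can draw reads. The genes that build ribosomes did not follow: of 27, 3 rose and 7 fell. MYC, a factor that activates them, had 148 and 155 CPM in Mix-Embed, against 91.1 and 100.1 CPM in 2D (log2 fold change 0.66 ± 0.06, adjusted p = 7.05e-12). UTP20 and NOLC1, which process ribosomal RNA in the nucleolus, fell (-0.60 ± 0.06 and -0.26 ± 0.05).

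Among the non-coding classes, antisense genes were called higher in 55 and lower in 9 of 1335 cases, and lincRNA genes higher in 52 and lower in 18 of 1320, against 1927 higher and 1980 lower of 14491 protein-coding genes. The strand setting of the counting is not given in the sources used here, so reads of an antisense gene and its partner may have been mixed. Host genes of small nucleolar RNAs and other long non-coding RNAs rose in 8 and fell in 2 of 19. SNHG7 had 158 and 174 CPM in Mix-Embed, against 90.2 and 118 CPM in 2D (log2 fold change 0.67 ± 0.08, adjusted p = 6.48e-09). EPB41L4A-AS1 had 27.4 and 26.8 CPM in Mix-Embed, against 13.3 and 14.6 CPM in 2D (log2 fold change 0.96 ± 0.13, adjusted p = 7.8e-08). MALAT1 fell (-0.43 ± 0.06). Among called genes that are not protein-coding, with at least 10 CPM in the higher culture and no overlap of replicates, TRHDE-AS1 was the highest by fold change (14.3 and 14.9 CPM in Mix-Embed, against 3.47 and 4.17 CPM in 2D, 1.93 ± 0.20), and MIR22HG, the host of miR-22, was the lowest (4.04 and 5.53 CPM in Mix-Embed, against 14 and 13.6 CPM in 2D, -1.54 ± 0.17). The pseudogenes GTF2H2B and MTCO1P12, also among the highest, differed between their own Mix-Embed replicates and have near-identical copies, with 4.25 and 16 CPM in Mix-Embed, against 4 and 3.23 CPM in 2D for the first and 100.5 and 46.1 CPM in Mix-Embed, against 26.8 and 34.1 CPM in 2D for the second.

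Called genes were also uneven over chromosomes. Of the 34 tested genes of the mitochondrial genome, 18 were higher (52.9%) and 4 lower (11.8%). On chromosome 19, 240 of 1329 genes were higher (18.1%) and 47 lower (3.54%), whereas on chromosome 13, 20 of 356 were higher and 41 lower. Chromosome 19 is rich in GC and carries the large clusters of KRAB zinc finger genes, repressors that bind mobile elements, so the chromosome was divided after its values were seen. Its 246 zinc finger genes, with a median GC content of only 42.3%, were higher in 38 cases and lower in 4 (median log2 fold change 0.18), and with the GC offset higher in 47 and lower in 3. Its other 820 protein-coding genes, with a median GC content of 60.1%, were higher in 192 and lower in 41, and with the GC offset higher in 124 and lower in 107. Zinc finger genes elsewhere, 271 in number, were higher in 24 and lower in 19.

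Mix-Embed was set directly against Inject-Embed, the other Matrigel culture of Huh7, to find where the 2 cultures differ. Cell number (20000 against 4000 per well), mixing or injection, and the make-up of the gel change together between them and cannot be told apart here. Of 19342 genes 4435 were called (22.9%), 2587 higher in Mix-Embed (13.4%) and 1848 lower (9.55%), so that 58.3% of calls were higher. That split depended on the scaling, with 47.1% higher when library totals alone were used. Hypoxia genes were higher in Mix-Embed in 24 of 26 cases and lower in none, with a median log2 fold change of 1.00. PFKFB4 had 179.9 and 177 CPM in Mix-Embed, against 36.9 and 38.8 CPM in Inject-Embed (log2 fold change 2.24 ± 0.07, adjusted p = 2.31e-26), and BNIP3 and DDIT4 differed by 1.65 ± 0.05 and 1.71 ± 0.09. Glycolysis was higher in 15 of 19, cholesterol synthesis in 19 of 23 and ribosomal proteins in 36 of 40, with none lower in any of these lists. Each of these 4 counts differed by at most 3 genes with RLE scaling, library totals alone or either offset, and in cholesterol synthesis 1 gene was then lower under 3 of them.

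Metallothioneins lay on the other side, lower in Mix-Embed in 8 of 8 cases with a median of -2.32. MT2A had 52.4 and 60.1 CPM in Mix-Embed, against 252 and 229 CPM in Inject-Embed (log2 fold change -2.10 ± 0.07, adjusted p = 2.16e-27), so that the order was Inject-Embed, then Mix-Embed, then 2D, with no overlap of replicates. Ribosome biogenesis was lower in Mix-Embed in 22 of 27 cases and higher in none, and heat shock genes were lower in 15 and higher in 1 of 20. The widest differences by fold in the upward direction included PNCK (28.7 and 29 CPM in Mix-Embed, against 3.78 and 3.15 CPM in Inject-Embed, log2 fold change 3.05 ± 0.22, adjusted p = 6.26e-15), SLC6A8, the creatine transporter (116 and 121 CPM in Mix-Embed, against 21.7 and 12.2 CPM in Inject-Embed, log2 fold change 2.79 ± 0.12, adjusted p = 1.99e-22), ARG1 (2.49 ± 0.13), HAL (2.48 ± 0.19) and PPFIA4, a hypoxia-inducible liprin (2.40 ± 0.14). Some genes named above were not called between the 2 Matrigel cultures. THBS1 had 9.47 and 7.08 CPM in Mix-Embed, against 10.8 and 7.99 CPM in Inject-Embed (log2 fold change -0.19 ± 0.14, adjusted p = 0.409), and ID1 had 205 and 216 CPM in Mix-Embed, against 214 and 206 CPM in Inject-Embed (log2 fold change 0.00 ± 0.06, adjusted p = 1). For CDH17 the log2 fold change was 0.02 ± 0.07 (adjusted p = 0.905), while CES1, ZG16 and TXNIP were higher in Mix-Embed (0.61 ± 0.16, 1.53 ± 0.17 and 1.23 ± 0.11).

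**Figure D5:**
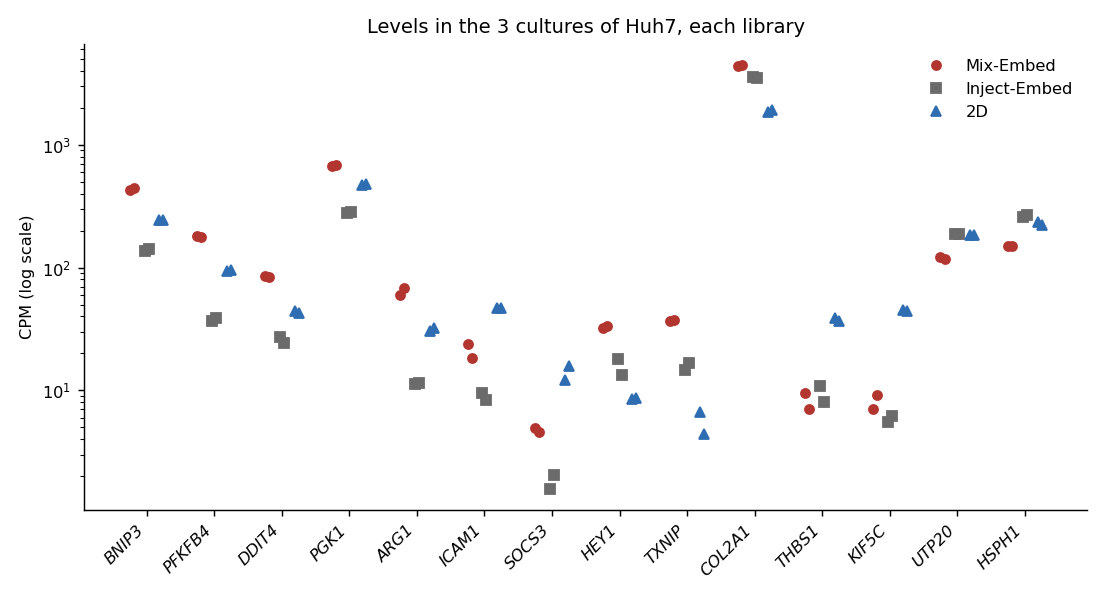
Points give CPM on a log axis in each Huh7 library for 14 genes, for Mix-Embed (red circles), Inject-Embed (grey squares) and 2D (blue triangles), 2 libraries each. BNIP3, PFKFB4, DDIT4 and PGK1 are highest in Mix-Embed and lowest in Inject-Embed, whereas THBS1 and KIF5C are low in both gels and high in 2D.

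The same pair of cultures in HLF gave the test of whether a response was shared between lines. In HLF 5605 genes were called between Mix-Embed and 2D (29%), 2789 higher (14.4%) and 2816 lower (14.6%). Of the 2157 genes that rose in Huh7, 512 (23.7%) also rose and 336 (15.6%) fell in HLF, and of the 2046 that fell in Huh7, 642 (31.4%) also fell and 348 (17%) rose. The difference of the responses, Huh7 minus HLF, was called for 3944 genes (20.4%), 1968 higher and 1976 lower in Huh7 (10.2% each). With library totals alone 37.1% of these calls were higher, against 49.9% with the TMM scaling used here.

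Of the interferon-stimulated genes, 24 of 31 had a lower response in Huh7 and none a higher one. In HLF 30 of 31 rose with Mix-Embed, against 4 higher and 4 lower in Huh7. IFITM3 had 369.5 and 368 CPM in HLF Mix-Embed, against 134 and 126 CPM in HLF 2D, where it rose, and fell in Huh7 (difference -2.94 ± 0.09, adjusted p = 2.67e-28). Antigen presentation genes were lower in response in 11 of 16 and higher in none. Ribosomal proteins were higher in response in Huh7 in 37 of 40 cases, and 35 fell in HLF. Replication genes were higher in response in 27 of 32, and 28 fell in HLF. These counts were 36 and 23 with library totals alone, the lowest of the scalings and offsets tried. CDT1 had 58.5 and 56.1 CPM in HLF Mix-Embed, against 77.9 and 71.3 CPM in HLF 2D (-0.38 ± 0.08 in HLF, difference 1.34 ± 0.10, adjusted p = 7.4e-14).

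Metallothioneins stood at different starting points in the 2 lines. MT2A had 240.0 and 236 CPM in HLF Mix-Embed, against 246 and 229.7 CPM in HLF 2D, with no call in HLF, so that Huh7 in Mix-Embed still lay below the level of HLF in either culture, and the difference of the responses was 6.05 ± 0.17 (adjusted p = 9.35e-29). MT1G, MT1F, MT1M and MT1A had no counts in the 4 HLF libraries, so no fold exists for them there. TXNIP rose in both lines, and more in HLF (difference -0.91 ± 0.18, adjusted p = 0.0001), and ID1, ID3 and BAMBI rose in both, with differences of -0.82 ± 0.08, -0.62 ± 0.11 and -0.04 ± 0.11. PFKFB3 rose in Huh7 and fell slightly in HLF (-0.14 ± 0.05, difference 1.52 ± 0.08), while BNIP3 and DDIT4 rose in both and their responses were not called different (adjusted p = 0.0703 and 0.8). FST had 0.752 and 0.713 CPM in HLF Mix-Embed, against 3.28 and 3.09 CPM in HLF 2D in the opposite direction to Huh7 (difference 3.19 ± 0.31, adjusted p = 4.07e-11).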

How the data were processed

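Poly-A RNA of Huh7 and HLF cultures was sequenced in 12 libraries, 2 labelled as biological replicates in each of 6 groups. The authors deposited 1 table of read counts and FPKM per gene, and per the submitters' processing notes FastQC, Trimmomatic, STAR 2.7.9a, featureCounts and GRCh38 were used. For their settings, annotation release and strand handling no label or file header gives a value. The deposited FPKM values equal the count divided by gene length and library total, in 167453 of 167453 values of at least 20 counts (relative tolerance 1e-06). The column names shorten the Matrigel cultures, and the name with Emb was read as Mix-Embed. All columns were assigned.

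Counts were filtered with filterByExpr (minimum count 10), scaled by TMM and fitted over all 12 libraries with 1 mean per group in edgeR 4.0.16 (R 4.3.3), by the quasi-likelihood test with Benjamini-Hochberg adjustment over all 19342 tested genes and a threshold of 0.05. The common dispersion was 0.00211. The line difference is the Huh7 minus the HLF log2 fold change of Mix-Embed over 2D. CPM uses TMM-scaled totals. Ratios of summed counts carry 95% intervals that cover counting error only. Code was tested on simulated data. Symbols were matched for 58207 of 58735 IDs, and 12 names had become spreadsheet dates. GC content came from the longest annotated transcript.

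Members and gene lists (61, with 1198 of 1299 symbols tested) were chosen with earlier results of these data known. Named genes were the 15 highest and 15 lowest called protein-coding genes of at least 10 CPM in the higher culture without overlap of replicates, the 10 called genes of highest CPM, 5 each way of other biotypes, up to 4 per list and direction by adjusted p, 6 each way in the other comparisons, and a set of chosen genes. SERPINA1 and the other untested or marker genes of the marker check were named outside this rule, after their values were seen, and some genes that the rule names are not reported here. Alternatives were RLE scaling, library totals, no filter, DESeq2 1.42.0, limma 3.58.1 on log2(FPKM + 1) and log2(FPKM + 0.1), fewer libraries, a replicate block and leaving out each replicate, and, chosen after seeing the data, GC and GC with length offsets.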

Additional observations from a re-analysis of the deposited data

Results flagged for a closer look

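Among the genes reported here, 25 were called in opposite directions by Mix-Embed in the 2 lines, with at least 10 CPM in the higher culture of each line and a called difference of the responses (edgeR quasi-likelihood test of the interaction, adjusted p under 0.05) of at least 1 in size on the log2 scale. That is what set them apart here. Over all genes 684 were called in opposite directions with a called difference, 570 of them with at least 10 CPM in the higher culture of each line, and a called difference was found for 235 of the 386 named genes. Values in brackets are the Huh7 minus the HLF log2 fold change.

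A negative value marks a gene that fell in Huh7 and rose in HLF. Genes of signalling and its control were EGR1 (-3.70), JAG1 (-2.26), SOCS3 (-1.99), TGFBR2 (-1.67) and HES4 (-1.14). Genes of the cell surface, matrix and cytoskeleton were ABLIM3 (-3.26), THBS1 (-2.49), NT5E (-2.22) and COL4A5 (-1.27). Genes of plasma proteins, interferon response and metabolism were IFITM3 (-2.94), SERPING1 (-1.63), SERPINA6 (-1.36) and GSTM3 (-1.26). The nuclear non-coding RNA MALAT1 stood at -1.67.

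A positive value marks a gene that rose in Huh7 and fell in HLF. Genes of glucose, hypoxia and transport were PFKFB3 (1.52), NDRG1 (1.19), STC2 (1.16), PCK2 (1.17) and SLC6A8 (1.41). Haem breakdown and growth genes were HMOX1 (1.79), MYC (1.04) and CDT1 (1.34). Membrane and matrix genes were ERBB3 (1.48), MYOF (1.01) and MATN2 (1.37). Groups of 2 libraries were not tested for single outlying samples.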

How the results depend on the processing

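The Mix-Embed against 2D count of called genes, 4203, ranged from 2696 to 3764 when 1 replicate was left out, with 1376 to 1935 higher and 1320 to 1829 lower; the lowest total came without Mix-Embed replicate 2, and without 2D replicate 1 the number higher was 1381. Under the other settings it lay between 3109 (limma on log2(FPKM + 0.1)) and 4335 (GC offset), and no called gene was called in the opposite direction under any of the 15 settings tried. The Mix-Embed against Inject-Embed count ranged from 3026 to 3185 without 1 replicate, and the line difference from 3073 to 3765. The split of calls between Mix-Embed and Inject-Embed moved from 58.3% higher to 62.5% without a filter, 47.1% with library totals alone and 49.1% with the 6 Huh7 libraries alone, and that of the line difference to 37.1% with library totals alone and 40% with limma on log2(FPKM + 1), under which 5 genes were called in the opposite direction.

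Of the named genes, 4 changed sign without being called: with the GC offset AGRN gave -0.02 (-0.01947) and FASN -0.02 (-0.01503), and with the GC and length offset CYC1 gave -0.02 (-0.02206) and H2BC12 -0.01 (-0.01454). Without Mix-Embed replicate 2, 54 of 386 named genes were no longer called, and with RLE scaling 8. Replicate numbers did not pair the Huh7 Mix-Embed and 2D libraries (correlation of deviations 0.0486 over 10316 genes), and with the replicate block 4194 genes were called, 98.5% of the calls being kept. With 2 libraries a group, genes at low level are limited by depth: 3 counts correspond to 0.178 to 0.255 CPM.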
